A study of Mus musculus with 21 samples.

Results

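Forebrain RNA of 3 E4H mice was compared with that of 3 E2H mice, which asks how the transcriptome differs between the APOE4 and APOE2 alleles when no tau transgene is present. These are 6 of the 21 mice of the series, taken by their labels, and all genes that passed a filter on low counts were tested, which left 20804 genes of the 55401 counted. The E2H and E4H mice carry human APOE2 or APOE4 in place of mouse Apoe on both chromosomes, and they have no P301S tau transgene. The study's methods give them as targeted replacement lines kept as homozygotes on a C57BL6 background, and its legends give an age of 9 to 10 months. Each allele is carried by its own line, so the APOE allele and any other difference between the lines cannot be told apart. A further 3 groups are used below only to place the result: 3 E3H mice with human APOE3, kept in the same way, and 4 PS/E2H and 4 PS/E4H mice. The PS19 mice carry the P301S tau transgene from a line on a B6/C3H background, are homozygous for the same APOE alleles after 2 generations of crossing, and were killed when paralyzed.

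APOE is the main lipoprotein of the brain, made chiefly by astrocytes and, in disease, by microglia, and it carries cholesterol and phospholipids to cells through receptors of the LDL receptor family. The isoforms differ in their binding to lipid and to these receptors, and APOE4 raises while APOE2 lowers the risk of Alzheimer's disease. Work on these alleles has therefore looked to glial, immune, lipid and mitochondrial genes, and the lists used below cover them.

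The total count was 61093230 to 75533642 per E2H mouse and 66983058 to 74756427 per E4H mouse. Mouse Apoe (chromosome 7, 19696109 to 19699188) had 880 to 1164 counts in the 6 mice and did not differ between the groups (log2 fold change -0.16 ± 0.13 SE), and transcripts of human APOE were not analysed here. The study's methods give 1 of the E4H mice as female and the E2H mice as male. In the counts, 5 of the 6 mice had Xist, the RNA of the inactive X chromosome, at 224 to 483 CPM (counts scaled to the TMM-normalised library size) and at most 21 Y-linked counts, whereas E4H_3 had Xist at 2.56 CPM and 10256 Y-linked counts. The stated sexes and the counts thus differ, since 1 of the 6 mice had more than a trace of Y-linked RNA where the methods give 5 males. E2H_2 also stood apart, at -36.65 on the first principal component against -3.72 to 21.6 in the other 5 mice, with the lowest total count and 10.9% of counts from mitochondrial genes, beside 8.25% to 9.10%. Values without E2H_2 or E4H_3 are given beside many of the results below. Counts in a list were not drawn without E4H_3, and results shown without such values may also move.

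Of the 20804 genes, 39 (0.187%) were called different, with a fold change of at least 2 and a Benjamini-Hochberg adjusted p under 0.05 in edgeR's quasi-likelihood test. Expression was higher in E4H mice for 26 of them (0.125%) and lower for 13 (0.0625%). Another 6 genes had an adjusted p under 0.05 with a smaller fold change, so that 45 (0.216%) passed adjustment. The calls fell in few places of the genome: 16 of the 26 higher genes lie together on chromosome 4. The others include the protease inhibitors Serpina3n and Serpina3m, the dynein Dnah6, and Gm16867 and Gm27177, which overlap the Entpd4 copies on chromosome 14. The lower genes include Wdfy1, Dctd, Erdr1, Mid1, Ighg2c and Capn11. With 1 mouse left out at a time, 18 to 26 genes were called higher and 8 to 14 lower, and 24 of the 39 were called in each of the 6 fits. Leaving out E2H_2 gave 26 higher and 14 lower genes, leaving out E4H_3 26 and 9, and leaving out both, an alternative chosen after seeing the data, 28 and 13.

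**Figure D1:**
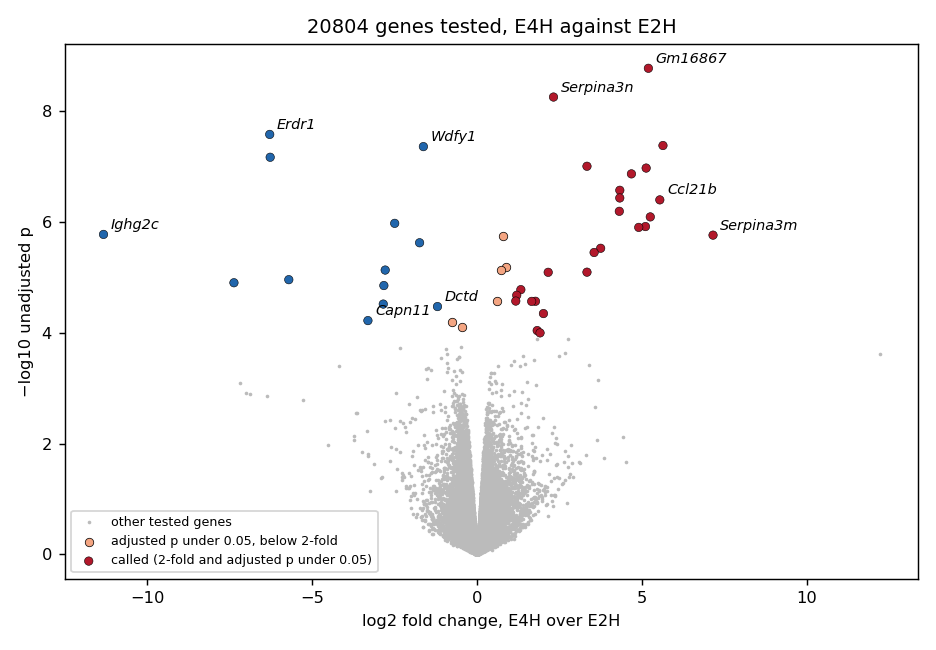
Log2 fold change (E4H over E2H, x axis) against −log10 of the unadjusted p from edgeR's quasi-likelihood test (y axis) for the 20804 genes tested. Red points are the 26 genes called higher in E4H, blue points the 13 called lower, orange points the 6 genes with an adjusted p under 0.05 below 2-fold, and grey points all others.

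Serpina3n, a secreted serine protease inhibitor that is widely used as a marker of reactive astrocytes, was higher in E4H mice. Its level was 32.9, 32.0 and 28.2 CPM in the E2H mice and 159, 138 and 170 CPM in the E4H mice. Every E4H mouse was above every E2H mouse, as was so for 10.7% of all genes, and the E3H mice, at 25.03 to 28.1 CPM, lay with the E2H mice. The gene (ENSMUSG00000021091, chromosome 12, 104406729 to 104414329) rose 5.01-fold (log2 fold change 2.32 ± 0.10 SE, adjusted p = 5.86e-05 in edgeR's quasi-likelihood test). Its neighbour Serpina3m (chromosome 12, 104338486 to 104394257) had 5, 0 and 0 counts in the E2H mice and 233, 286 and 285 counts in the E4H mice. It rose by 7.16 ± 0.63 (SE) on the log2 scale (adjusted p = 0.00184, edgeR's quasi-likelihood test), a fitted value that rests on E2H counts near 0. Of 11 SERPINA3 genes looked for, only these and Serpina3g passed the filter on low counts, and Serpina3g, at 1.20 to 2.07 CPM in E2H and 0.518 to 1.07 CPM in E4H mice, did not pass adjustment (log2 fold change -0.98 ± 0.35 SE, adjusted p = 0.367, edgeR's quasi-likelihood test).

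Serpina3n was the 1 called gene among the 15 reactive astrocyte genes tested. The median log2 fold change of that list was -0.07, beside 0.0027 over all genes tested, and 10 of the 15 values were negative. Lcn2, another reactive astrocyte gene, had 498 counts in E2H_1 and 5 to 17 counts in the other 5 mice, and it did not pass adjustment (log2 fold change -4.51 ± 1.39 SE, adjusted p = 0.363, edgeR's quasi-likelihood test). Homeostatic astrocyte genes gave 0 of 14 at an unadjusted p under 0.05, with a median of -0.03, but 3 of the 14 were higher at that limit without E2H_2. In the 6 mice Serpina3n was the only gene of either list higher in E4H mice at that limit, where 5.38% of all genes were.

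The largest group of calls was a run of 16 genes on chromosome 4 between 41893388 and 42612860, all higher in E4H mice. It holds the genes of the chemokine CCL21, which guides T cells and dendritic cells through the receptor CCR7, together with Fam205a2, Fam205a3, Fam205a4 and a set of predicted genes and pseudogenes. This stretch is repetitive: 67.1% to 100% of the 50-base windows of each called gene's transcripts (median 99.98%) also occur in another annotated gene. The coding sequences show how little tells the CCL21 copies apart, and a stretch from base 74 to base 204 is printed here because it holds every difference among them. The coding sequence has 402 bases in each copy, positions are counted from 1 at the A of the start codon, and capitals mark the bases that differ, T84A and C194T from Ccl21a to the other copies.
Ccl21a: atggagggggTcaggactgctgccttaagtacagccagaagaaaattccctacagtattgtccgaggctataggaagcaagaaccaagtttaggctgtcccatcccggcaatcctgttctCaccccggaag
Ccl21b, Ccl21d, Gm10591 and Gm13304: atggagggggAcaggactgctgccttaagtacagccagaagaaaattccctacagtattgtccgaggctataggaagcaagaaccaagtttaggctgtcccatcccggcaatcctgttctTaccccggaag
The sequences are those of the GENCODE M21 transcripts (GRCm38). Over all 402 coding bases Ccl21b, Ccl21d, Gm10591 and Gm13304 had 0 differences from each other, so the division of reads among them depends on how the authors' counting placed reads that match several genes.

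Ccl21b (ENSMUSG00000095675, chromosome 4, 42255767 to 42256432) was at 0.133, 0.122 and 0.0276 CPM in the E2H mice and at 3.92, 4.37 and 5.05 CPM in the E4H mice, a 46.8-fold difference (log2 fold change 5.55 ± 0.41 SE, adjusted p = 0.000698, edgeR's quasi-likelihood test). Ccl21d (41903610 to 41904743) was at 0.0276 to 0.122 CPM in E2H and 2.63 to 3.52 CPM in E4H mice, and rose by 5.11 ± 0.43 (SE) on the log2 scale. Gm10591 and Gm13304, with the same coding sequence, rose by 5.65 ± 0.32 and 5.26 ± 0.42 (SE). Each of the 4 copies separated the groups completely and was close to the floor of detection in E2H mice. Ccl21a, on the opposite strand at 42772860 to 42773993, was at 0.0174 to 0.159 CPM in E2H and 0.328 to 0.625 CPM in E4H mice and did not pass adjustment (log2 fold change 2.36 ± 0.72 SE, adjusted p = 0.363, edgeR's quasi-likelihood test). Because the copies share sequence, their sum is also given. With Ccl21a it was 0.448 ± 0.224 CPM (SD, n = 3) in E2H, 19.7 ± 3.54 CPM (SD, n = 3) in E3H and 15.8 ± 0.653 CPM (SD, n = 3) in E4H mice. The sum was 35.3-fold higher in E4H than in E2H mice, with no overlap, and the two-sided exact permutation p was 0.1, the smallest that 3 mice against 3 can give. In the E3H mice the sum lay at 15.8 to 22.6 CPM, so the E2H mice were the ones that stood apart. The CCL21 copies were the only called chemokines: of 25 ligands tested, Ccl21b and Ccl21d were called under the list's names. Of 12 receptors 0 were called, and 1 was lower at an unadjusted p under 0.05, where 6.97% of all genes were. Ccr7, the CCL21 receptor, was removed by the filter, with means of 0.069 CPM in E2H and 0.0199 CPM in E4H mice.

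The Fam205a genes showed a smaller difference at a higher level. Their sum was 10.4 ± 0.225 CPM (SD, n = 3) in E2H and 24.6 ± 2.90 CPM (SD, n = 3) in E4H mice, 2.37-fold apart, with E3H at 22.3 ± 3.30 CPM (SD, n = 3). Singly, Fam205a2, Fam205a3 and Fam205a4 rose by 1.33, 1.21 and 1.18 on the log2 scale (adjusted p of 0.0109, 0.0133 and 0.0153 in edgeR's quasi-likelihood test). Each of them was called in only 2 of the 6 fits with 1 mouse left out, and for Fam205a2 the adjusted p was 0.0522 to 0.0812 in the 4 others, by the same edgeR quasi-likelihood test. Gm17081, a pseudogene of the run, rose by 5.14 ± 0.32 (SE) on the log2 scale and was called in all 6 of those fits. Not all predicted genes of the run were so stable, and some were called in only 1 or 2 of those fits. Another 4 identifiers, all higher in E4H mice, are not named in GENCODE M21. They rose by 1.92 to 4.69 on the log2 scale, the one with the smallest rise was called in 0 of the 6 fits with 1 mouse left out, and their positions are not used here.

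A repeated stretch on chromosome 14 gave the smallest p of the comparison. Gm16867, a predicted coding gene on the minus strand (69363504 to 69503362), was at 0.584, 0.366 and 0.594 CPM in the E2H mice and at 21.3, 18.6 and 17.8 CPM in the E4H mice. The gap between the groups was far larger than the spread within either, and the gene rose 36.8-fold (log2 fold change 5.20 ± 0.20 SE, adjusted p = 3.55e-05, edgeR's quasi-likelihood test). Gm27177, an antisense transcript nearby, rose by 4.34 ± 0.31 (SE). Gm16867 overlaps the end of Entpd4 and Gm27177 that of Entpd4b on the other strand, and whether the counting used strand is not given in the sources used here. Entpd4 is a nucleotide diphosphatase of the Golgi and lysosomes. Entpd4 and Entpd4b share all of their 50-base windows, and their sum was 86.0 ± 2.54 CPM (SD, n = 3) in E2H and 147 ± 5.10 CPM (SD, n = 3) in E4H mice, a ratio of 1.71. Each passed adjustment below the 2-fold limit, with log2 fold changes of 0.74 ± 0.08 and 0.80 ± 0.07 (SE), and Entpd4 lost it without 1 of the mice (adjusted p up to 0.0721, edgeR's quasi-likelihood test). The E3H mice, at 152 ± 7.45 CPM (SD, n = 3), again lay with the E4H mice.

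Wdfy1, an endosomal adaptor that links toll-like receptors to the signalling protein TRIF, was lower in E4H mice. It was at 56.2, 50.5 and 49.9 CPM in the E2H mice and at 16.1, 18.3 and 16.6 CPM in the E4H mice. The gene (ENSMUSG00000073643, chromosome 1, 79702262 to 79776143) fell 3.08-fold (log2 fold change -1.62 ± 0.09 SE, adjusted p = 0.000184, edgeR's quasi-likelihood test), and the E3H mice, at 47.3 to 56.2 CPM, overlapped the E2H mice. It was the 1 called gene among 17 toll-like receptor and adaptor genes, whose median log2 fold change was -0.02. No other member of that list had an unadjusted p under 0.05.

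Dctd, the deaminase that makes dUMP for thymidine synthesis, was at 9.31, 9.39 and 7.59 CPM in E2H and at 4.09, 3.92 and 3.50 CPM in E4H mice. It fell 2.29-fold (log2 fold change -1.19 ± 0.15 SE, adjusted p = 0.0180, edgeR's quasi-likelihood test), on chromosome 8 (48099092 to 48153233). The groups did not overlap, but the call was lost without E2H_1 or without any single E4H mouse, where the adjusted p in edgeR's quasi-likelihood test was 0.0866 to 0.130. On chromosome 6, 4 genes passed adjustment. Dnah6, an axonemal dynein heavy chain of motile cilia, was at 2.55, 1.43 and 1.59 CPM in E2H and 8.61, 8.84 and 7.62 CPM in E4H mice and rose 4.48-fold (adjusted p = 0.00606, edgeR's quasi-likelihood test). It was the only one of 13 ciliated ependymal genes at an unadjusted p under 0.05, and the call was lost without E2H_3 (adjusted p = 0.0505 in edgeR's quasi-likelihood test) and, just above the limit of 0.05, without E4H_2. Nat8f5, of the N-acetyltransferase 8 family, was lower, at 1.25 to 1.78 CPM in E2H and 0.204 to 0.239 CPM in E4H mice (log2 fold change -2.82 ± 0.32 SE). That call was lost without E2H_3 or without any single E4H mouse (adjusted p of 0.0588 to 0.0812 in edgeR's quasi-likelihood test). Pon2, a mitochondrial and endoplasmic reticulum paraoxonase that limits oxidative stress, was at 56.4, 68.0 and 57.2 CPM in E2H and 39.4, 34.1 and 34.0 CPM in E4H mice. It fell by 0.76 ± 0.11 (SE) on the log2 scale, below the 2-fold limit (adjusted p = 0.0315, and up to 0.237 with 1 mouse left out, edgeR's quasi-likelihood test).

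**Figure D2:**
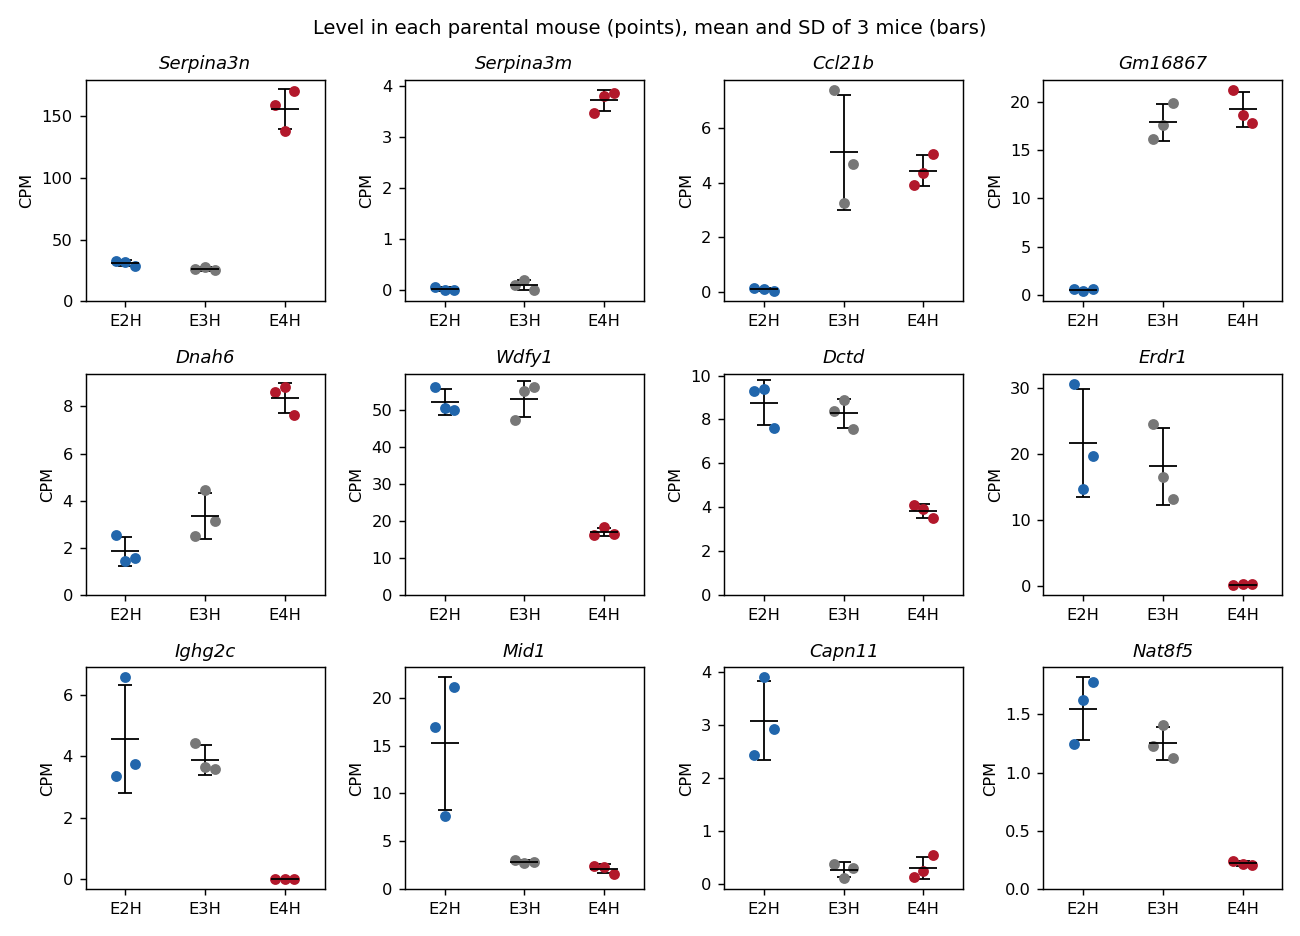
Level in CPM (y axis of each panel) of 12 called genes in each parental mouse, with points for E2H in blue, E3H in grey and E4H in red, and bars for the mean ± SD of 3 mice. Serpina3n, Serpina3m and Dnah6 are high in E4H, Ccl21b and Gm16867 are low in E2H, Mid1 and Capn11 are high in E2H, and the other 5 genes are low in E4H.

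The X and Y chromosomes gave a set of lower genes at the pseudoautosomal end, the stretch that both sex chromosomes share. Erdr1, a small protein named for a role in red cell differentiation, was at 30.6, 14.7 and 19.7 CPM in E2H and at 0.209, 0.292 and 0.326 CPM in E4H mice. It fell by 6.28 ± 0.34 (SE) on the log2 scale (adjusted p = 0.000184, edgeR's quasi-likelihood test). Its copy Gm47283, annotated on chromosome Y, was at 17.2 to 37.9 CPM and 0.213 to 0.448 CPM. The genes share 59.7% and 40.5% of their windows with other genes, and E2H and E3H mice without Y-linked counts still had Gm47283 counts, so its reads cannot be assigned to Y. Their sum was 48.3 ± 18.6 CPM (SD, n = 3) in E2H, 39.6 ± 11.7 CPM (SD, n = 3) in E3H and 0.622 ± 0.104 CPM (SD, n = 3) in E4H mice. E4H_3, with its Y-linked counts, lay at 0.705 CPM beside 0.657 and 0.505 CPM for the other E4H mice, so this difference was as large without it. Mid1, a microtubule-bound ubiquitin ligase beside Erdr1 on X, was at 17.0, 7.59 and 21.1 CPM in E2H and 2.45, 2.34 and 1.60 CPM in E4H mice, and fell by 2.84 ± 0.36 (SE) on the log2 scale (adjusted p = 0.0167, edgeR's quasi-likelihood test). Unlike Erdr1, Mid1 in E3H mice, at 2.75 to 3.06 CPM, lay closer to E4H, just above its range. Only the fit without E2H_2 kept this call when 1 mouse was left out, and the other 5 gave an adjusted p of 0.0607 to 0.132 in edgeR's quasi-likelihood test.

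Ighg2c, the constant region gene of IgG2c, had 253, 378 and 271 counts in the E2H mice and 0 counts in each E4H mouse. Against a floor of 3 counts per library it was at least 109-fold lower in E4H mice (adjusted p = 0.00184, edgeR's quasi-likelihood test), while the E3H mice had 3.58 to 4.45 CPM. Of 12 blood cell genes tested, Ighg2c was the 1 called, and 9 were lower at an unadjusted p under 0.05, where 6.97% of all genes were. E2H_1 was rich in these genes, with a summed level of 816 CPM beside 236 and 371 CPM in the other E2H mice and 214 to 256 CPM in E4H mice. Hbb-bs, a haemoglobin chain, was at 284 CPM in E2H_1, at most 132 CPM in the other E2H mice and 70.8 to 87.0 CPM in E4H mice, and the median of the list moved from -1.05 to -0.45 without E2H_1. How much blood each sample held was not tested.

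Capn11, a calpain known mainly from testis, was at 2.43, 3.90 and 2.93 CPM in E2H and at 0.134, 0.253 and 0.543 CPM in E4H mice (log2 fold change -3.31 ± 0.46 SE, adjusted p = 0.0307, edgeR's quasi-likelihood test). It was called in 1 of the 6 fits that left out 1 mouse, that without E4H_3, and the others gave an adjusted p of 0.0587 to 0.237 in edgeR's quasi-likelihood test. On chromosome 2, Gm4724 fell by 1.74 ± 0.16 (SE) and the antisense transcript Gm13601, with 117 to 123 counts per E2H mouse and 2, 0 and 5 in the E4H mice, fell by 5.71 ± 0.63 (SE) on the log2 scale. The non-coding Gm20186 on chromosome 6 had 111, 34 and 79 counts in E2H and 0, 1 and 0 in E4H mice. Without E4H_1 the adjusted p of Gm13601 was 0.0721, and Gm20186 was called in 1 of 6 such fits (0.0518 to 0.0766 in the others, edgeR's quasi-likelihood test). These 3 genes have no approved name and their roles are not known. Of their 50-base windows, 99.8% (Gm4724), 34.1% (Gm13601) and 77.2% (Gm20186) also occur in another annotated gene. Esyt2, which tethers the endoplasmic reticulum to the plasma membrane, rose by 0.62 ± 0.08 (SE) below the 2-fold limit, at 33.3 to 37.0 CPM in E2H and 52.7 to 56.3 CPM in E4H mice (adjusted p = 0.0153, and up to 0.165 with 1 mouse left out, edgeR's quasi-likelihood test).

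Genes on chromosome 7 were looked at by their distance from Apoe, the replaced gene. Of the 1634 tested there, Gm45104 rose and 9330104G04Rik and Gm45844 fell past the 2-fold limit, and Zfp14 and Gm42372 passed adjustment below it. Gm45104, 1.30 Mb from Apoe, was at 0.797, 1.34 and 1.13 CPM in E2H and at 11.2, 10.3 and 11.5 CPM in E4H mice (log2 fold change 3.34 ± 0.21 SE). The non-coding 9330104G04Rik, 2.82 Mb away, was at 5.25 to 6.43 CPM and 0.836 to 1.18 CPM, and Gm45844, 12.5 Mb away, at 4.42 to 4.93 CPM and 0.393 to 0.864 CPM. Zfp14, a zinc finger gene 10.3 Mb away, was at 12.5 to 13.2 CPM in E2H and 23.7 to 23.9 CPM in E4H mice (adjusted p = 0.00570, and up to 0.0692 with 1 mouse left out, edgeR's quasi-likelihood test). For each of these 5 genes all E2H mice lay outside the range of the E3H and E4H mice. The share of genes at an unadjusted p under 0.05 was 24.4% of 123 genes within 5 Mb of Apoe, 22.2% of 167 genes at 5 to 10 Mb and 20% of 235 genes at 10 to 20 Mb. It was 12.1% of 215 genes at 20 to 40 Mb and 11.3% of 894 genes farther away, beside 14.7% on the whole chromosome. On the other autosomes the share was 9.55% (chromosome 18) to 14.6% (chromosome 4). Over all genes tested, 5.38% were higher and 6.97% lower in E4H mice at that limit. Whether genes near the replaced locus differ because of the allele or because of flanking DNA carried with it cannot be told apart here.

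**Figure D3:**
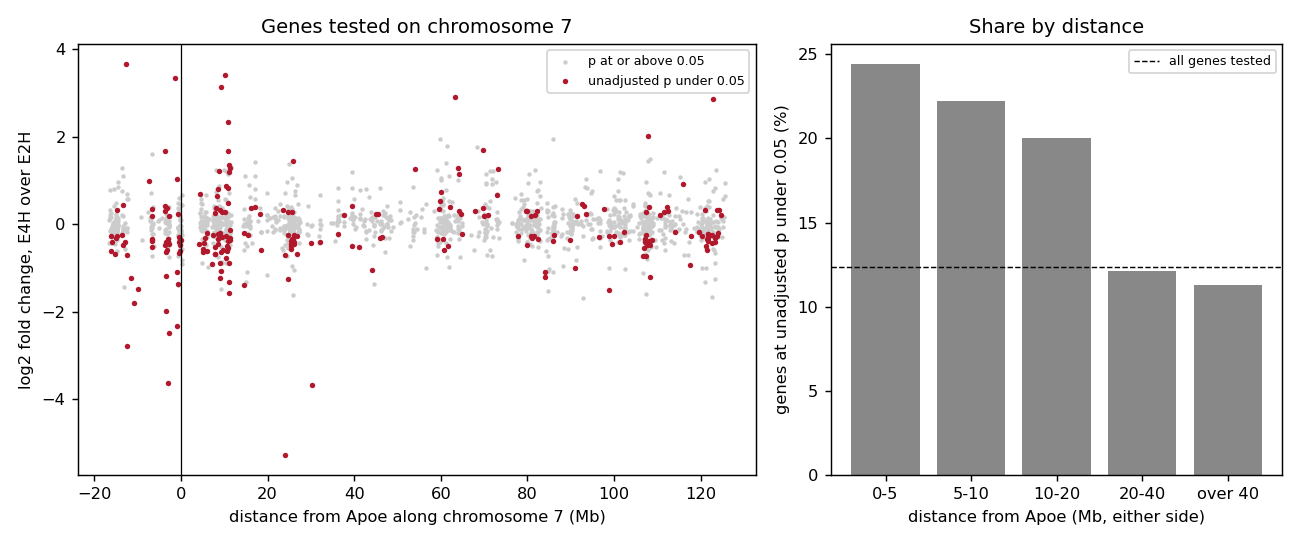
Left, log2 fold change (E4H over E2H, y axis) of the 1634 genes tested on chromosome 7 against their distance from Apoe in Mb (x axis), with genes at an unadjusted p under 0.05 in red. Right, the share of such genes in percent (y axis, from 0) by distance from Apoe on either side, which falls from 24.4% within 5 Mb to 11.3% beyond 40 Mb; the dashed line is the share among all genes tested.

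Another 3 genes chosen for description did not pass. Pglyrp1, a neutrophil protein that binds bacterial cell walls, lies 0.825 Mb from Apoe and was at 12.2, 5.10 and 4.32 CPM in E2H and 1.45, 1.38 and 1.44 CPM in E4H mice. The groups did not overlap (log2 fold change -2.34 ± 0.38 SE, adjusted p = 0.0818, edgeR's quasi-likelihood test), and without E2H_1, the mouse with the most blood cell RNA, the log2 fold change was -1.73 with an adjusted p of 0.0245 in the same edgeR test. Without E2H_2 it was 0.0485 in that test, so the gene was then called. In E3H mice Pglyrp1 was at 1.55 to 1.71 CPM, close to the E4H mice. It was at 4.64 to 11.5 CPM in PS/E2H and 1.10 to 2.31 CPM in PS/E4H mice. Nnt, the mitochondrial transhydrogenase that supplies NADPH, is counted under overlapping identifiers on chromosome 13 that share windows. The first had 2743, 2126 and 2807 counts in E2H and 402, 1558 and 513 in E4H mice, and the second 0, 0 and 0 in E2H and 852, 95 and 850 in E4H mice. Summed over both, Nnt was at 37.4 ± 1.20 CPM (SD, n = 3) in E2H, 20.8 ± 1.84 CPM (SD, n = 3) in E3H and 19.7 ± 1.95 CPM (SD, n = 3) in E4H mice, 1.90-fold higher in E2H. Without E4H_2 each identifier was called (adjusted p of 0.000560 and 0.00135, edgeR's quasi-likelihood test). In PS19 mice the sum was 34.4 ± 2.72 CPM (SD, n = 4) in PS/E2H and 21.6 ± 2.90 CPM (SD, n = 4) in PS/E4H. The parental mice did not overlap, and the two-sided exact permutation p of the sum was 0.1, the smallest possible with 3 mice a group. Eps8l1, an actin-linked signalling adaptor, was at 5.20 to 6.33 CPM in E2H and 4.56 to 7.67 CPM in E4H mice and did not differ (log2 fold change 0.06 ± 0.21 SE), whereas the E3H mice had 0.718 to 0.912 CPM.

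The E3H mice show which line stood apart at each called gene. Of the 26 higher genes, 23 had all E2H mice outside the range of the E3H and E4H mice and 4 had all E4H mice outside that of E2H and E3H. Of the 13 lower genes, 4 had E2H outside, 9 had E4H outside and 1 had neither. Gm3883 among the higher and Mid1 among the lower genes are in both counts, and Gm3883 is named here for this reason after its values were seen. Over all 20804 genes, E2H was outside in 10.8% and E4H in 3.52%. The called genes were chosen for a difference between E2H and E4H, whereas 21.4% of all genes had no overlap between these lines. The shares over all genes are therefore no measure of enrichment among the called genes. Of the higher genes with E2H outside, 16 are the chromosome 4 run, whose transcripts share sequence. The called genes on chromosomes 4, 14, 7 and 17 had E2H outside, and those on chromosomes 1, 6 and 8 had E4H outside. On chromosome 12, Serpina3n, Serpina3m and Ighg2c had E4H outside.

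Beyond single genes, 0 of the 78 cytosolic ribosomal protein genes were called, but 56 were lower in E4H mice at an unadjusted p under 0.05, where 6.97% of all genes were, and all 78 log2 fold changes were negative. Their median was -0.41. Rpl39, of the large subunit, was at 47.8, 71.9 and 46.9 CPM in E2H and 32.1, 31.5 and 35.1 CPM in E4H mice, and Rps21, of the small subunit, at 104, 162 and 108 CPM and 73.4, 68.8 and 82.7 CPM. E2H_2 was highest for both and had 1.66% of its counts in ribosomal protein genes, beside 1.01% to 1.25%, and without it the median was -0.21 and 48 genes were lower at an unadjusted p under 0.05. The E3H mice, at 28.6 to 37.6 CPM for Rpl39, lay with the E4H mice. The nuclear genes of oxidative phosphorylation had values of the same sign: 0 of 74 were called, 57 were lower at an unadjusted p under 0.05, and the median was -0.38, or -0.21 with 45 lower without E2H_2. Ndufa2, of complex I, was at 38.5 to 56.3 CPM in E2H and 25.1 to 32.2 CPM in E4H mice, and Cox7c, of complex IV, at 99.3 to 144 CPM and 77.5 to 80.9 CPM. Neither gene passed adjustment (adjusted p of 0.307 and 0.320 in edgeR's quasi-likelihood test). The 13 mitochondrially encoded genes had a median of -0.19, and -0.06 without E2H_2.

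Gene length moved with these values. When all genes were put in 4 groups of like size by the length of their exons, the median log2 fold change was -0.12 in the shortest group, -0.06 in the next, 0.0033 in the third and 0.098 in the longest. Without E2H_2 the outer values were -0.066 and 0.041. Of the ribosomal genes 43 of 78, and of the oxidative phosphorylation genes 45 of 74, are in the shortest group. The part of transcript length in the lower level of these genes was not tested.

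Of 19 complement genes 0 were called and 8 were lower at an unadjusted p under 0.05, beside 6.97% of all genes, and 8 were lower without E2H_2. C1qa, a subunit of the complement starter C1q made by microglia, was at 51.6, 65.4 and 47.6 CPM in E2H and 36.9, 39.2 and 37.5 CPM in E4H mice. Its groups did not overlap, but the adjusted p was 0.304 in edgeR's quasi-likelihood test (log2 fold change -0.54 ± 0.12 SE). C1qb and C1qc gave -0.46 and -0.41. Among 18 disease-associated microglia genes 4 were lower at an unadjusted p under 0.05, Tyrobp and Spp1 among them. Without E2H_2 the median went from -0.25 to -0.04, with 4 lower and 1 higher at that limit. Homeostatic microglia genes gave a median of -0.18 with 4 of 15 lower, or -0.03 with 1 lower without that mouse. In a bulk sample fewer cells of a type and less RNA per cell cannot be told apart.

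Interferon response genes had a median of 0.21, and 0.097 without E2H_2, with 3 of 25 higher and 1 lower at an unadjusted p under 0.05. Over all genes tested the median was 0.0027, with 5.38% higher and 6.97% lower at that limit. Isg15, a ubiquitin-like protein induced by interferon, was at 1.504 to 1.74 CPM in E2H and 2.42 to 2.65 CPM in E4H mice. Of 20 APOE receptors and lipid transporters 0 were called and the median was 0.093, or 0.022 without E2H_2. Apod, another apolipoprotein, was at 278 to 378 CPM in E2H and 181 to 244 CPM in E4H mice (adjusted p = 0.342, edgeR's quasi-likelihood test), and the sorting receptor Sorl1 was at 179 to 245 CPM in E2H and 249 to 316 CPM in E4H mice (adjusted p = 0.383, edgeR's quasi-likelihood test). Cholesterol synthesis genes gave 0 of 27 called, 5 lower at an unadjusted p under 0.05, or 3 without E2H_2, and a median of -0.03. Genes for tau kinases and APP processing gave 0 of 20 called and a median of 0.067, and Mapt, the mouse tau gene, was at 419 to 480 CPM in E2H and 497 to 510 CPM in E4H mice (log2 fold change 0.15, adjusted p = 0.433, edgeR's quasi-likelihood test).

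Neuronal, oligodendrocyte and vascular lists had medians of -0.06, -0.10 and 0.12, with 0 genes called in each, and the vascular median was 0.058 without E2H_2. Pdgfrb, the receptor that marks pericytes, was at 13.9 to 16.6 CPM in E2H and 19.8 to 24.8 CPM in E4H mice (adjusted p = 0.242, edgeR's quasi-likelihood test). Immediate early genes, which follow neuronal activity, had a median of -0.34. It was -0.25 without E2H_2, -0.19 without E4H_3 and -0.02 without both. At an unadjusted p under 0.05, 5 of 19 were lower, or 2 without E2H_2. Of all genes tested, 6.97% were lower at that limit in the 6 mice. Fos was at 23.3, 42.8 and 33.2 CPM in E2H and at 21.8, 18.3 and 9.09 CPM in E4H mice, lowest in E4H_3. Thalamic and hindbrain genes had a median of -0.54, or -0.18 without E2H_1 and -0.18 without E4H_2, and 2 of 13 were lower at an unadjusted p under 0.05, or 4 without E2H_2. The 2 were the serotonin genes Slc6a4 and Tph2, with 717 and 1587 counts in E2H_3, 42 and 123 in E2H_1, 99 and 149 in E2H_2, and 0 to 10 and 36 to 78 in the E4H mice. How much hindbrain tissue each sample held was not tested.

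**Figure D4:**
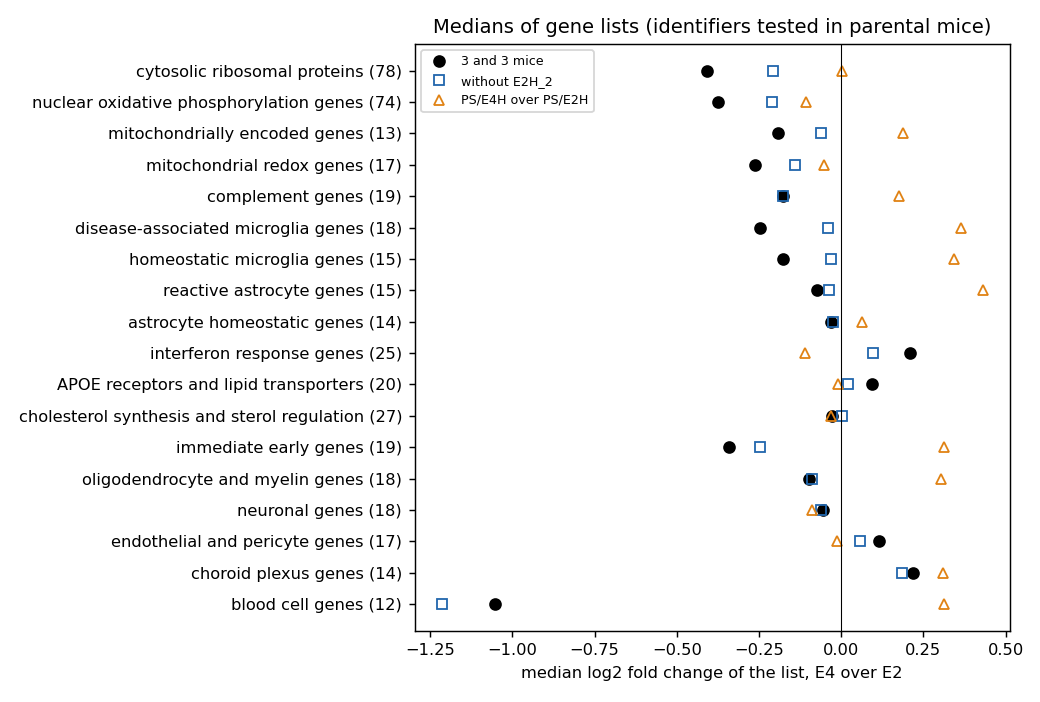
Median log2 fold change (E4 over E2, x axis) of 18 gene lists, with the number of identifiers tested in parentheses. Filled circles are the 3 E4H and 3 E2H mice, open squares the fit without E2H_2, and open triangles the PS19 mice; ribosomal protein and oxidative phosphorylation genes had medians of -0.41 and -0.38 that were -0.21 and -0.21 without E2H_2.

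The same allele contrast in the PS19 mice, 4 PS/E4H against 4 PS/E2H, uses none of the parental mice. All 39 called genes were tested there, and 37 had the same sign, 26 of the higher and 11 of the lower genes. Of the 39, 18 were called in the same direction, 12 higher and 6 lower, where 0.109% of the 20202 genes tested in PS19 mice were called, and 34 had the same sign at an unadjusted p under 0.05. These counts take each identifier singly. Of the 26 higher genes, 16 are the chromosome 4 run, whose transcripts share sequence, and Erdr1 and its copy Gm47283 share windows too. The counts thus stand for fewer separate loci. The CCL21 copies had almost the same difference, with Ccl21b at 5.59 ± 0.27 (SE) beside 5.55 ± 0.41 in parental mice. Gm45104 was larger in PS19 mice, at 4.22 ± 0.30 (SE), but for 34 of the 39 genes the log2 fold change was smaller in size there. These genes were chosen for their size in the parental mice, so smaller values in other mice are a description and carry no test. Serpina3n was at 103 to 190 CPM in PS/E2H and 264 to 554 CPM in PS/E4H mice, without overlap, and gave 1.47 ± 0.24 (SE), just short of a call (adjusted p = 0.0504, edgeR's quasi-likelihood test). Its neighbour Serpina3m was uneven in PS/E4H mice. It had 885 counts in PS/E4H_1, 640 in PS/E4H_3 and 0 in PS/E4H_2 and PS/E4H_4, beside 0 to 32 counts in PS/E2H mice. Erdr1 gave -3.25 ± 0.49 (SE), and Wdfy1 -1.09 ± 0.24 (SE), where 2 of the PS/E4H mice were at 17.8 and 16.8 CPM and the other 2 at 33.5 and 37.9 CPM.

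The exceptions were Capn11 and Gm4724. Capn11 had 1.28 ± 0.98 (SE) in PS19 mice, where the PS/E2H mice were at 0.184 to 0.418 CPM, and Gm4724 had 0.02 ± 0.66 (SE). Ighg2c, at least 109-fold lower in E4H mice, was detected in all PS/E4H mice at 0.145 to 2.65 CPM and gave -1.36 ± 0.68 (SE). The difference between the PS19 and parental contrasts was tested as an interaction. In edgeR's quasi-likelihood test, 0 of 22031 genes passed an adjusted p of 0.05, the smallest being 0.182, and 2223 (10.1%) had an unadjusted p under 0.05, among them 18 of the 39 called genes, a count to which the same choice of genes applies. DESeq2 gave 115 genes at an adjusted p under 0.05. Of the gene lists in PS19 mice, the ribosomal proteins had a median of 0.0019 with 1 of 78 lower and 1 higher at an unadjusted p under 0.05, and the complement genes one of 0.18 with 6 of 19 higher and 1 lower. The disease-associated microglia genes had a median of 0.36 in PS19 mice, with 10 of 18 higher and 0 lower at that limit. Over all genes tested in PS19 mice, 6.39% were lower and 5.94% higher at that limit. PS19 mice were paralyzed, carried DNA of another background, and 3 of the 8 had Y-linked counts, so tau, paralysis, sex and background cannot be told apart in this difference.

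**Figure D5:**
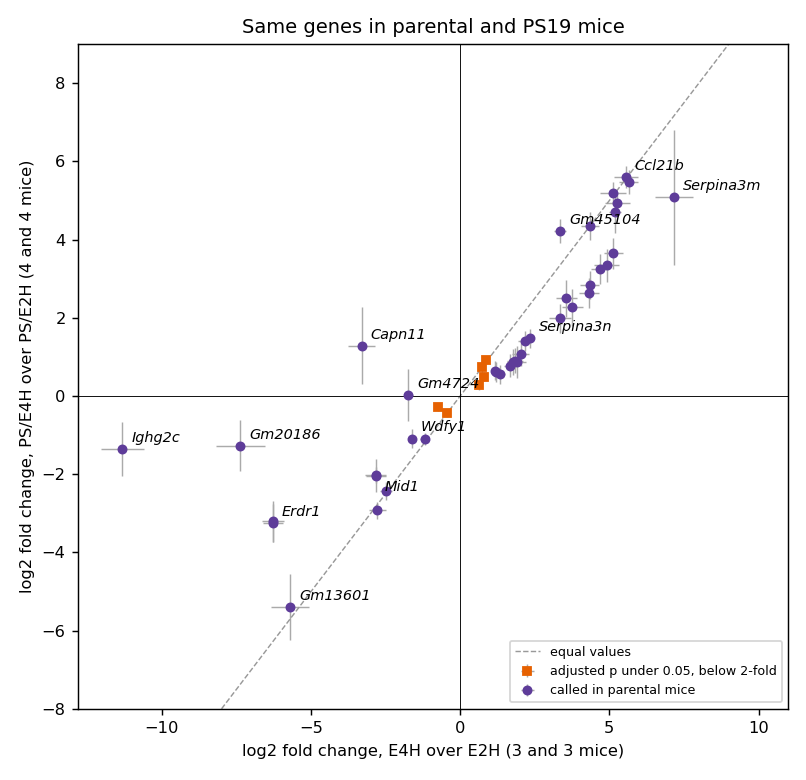
Log2 fold change with its SE of the 45 genes with an adjusted p under 0.05, in parental mice (E4H over E2H, x axis) and in PS19 mice (PS/E4H over PS/E2H, y axis); circles are the 39 called genes, squares the other 6, and the dashed line marks equal values. Of the 39 called genes 34 have a log2 fold change of smaller size in PS19 mice, and Capn11 and Gm4724 lie above zero in PS19 mice.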

How the data were processed

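RNA was from forebrain, with stranded poly(A) libraries and paired reads on an Illumina NovaSeq instrument. The authors trimmed with Cutadapt, aligned with HISAT2 to the Ensembl mouse genome (GRCm38.p5 per the labels), assembled with StringTie and deposited raw counts per gene and FPKM values, which scale for length and depth; how the counts were drawn from StringTie, and tool versions, are not given in the sources used here. Their own tests used DESeq2 with the same limits of 2-fold and 0.05. Groups and replicates came from sample titles. The counts of the 6 mice were fitted with edgeR 4.0.16 in R 4.3.3 (TMM, filterByExpr with a minimum count of 10 and a total of 15, glmQLFit and glmQLFTest), without covariates. Alternatives used DESeq2 1.42.0, limma 3.58.1 on log2(FPKM + 1) or log2(FPKM + 0.1), other filters, scaling, blocks and samples. CPM (counts scaled to TMM library sizes) per mouse were scaled over all 21 mice. SE is the absolute log2 fold change over the square root of F. The script was tested on simulated data with 100 changed genes among 20804. It recovered 81 of them at 2-fold and 92 at 4-fold, with 15 false calls in each case. The false calls were thus a larger share of the calls than the adjusted p limit of 0.05. Symbols and positions are from GENCODE M21 (GRCm38), which names 55141 of the 55401 genes, and the sequences shown are its transcripts. Figures used matplotlib 3.10.9 with Python 3.11.15. Genes and lists were chosen with earlier results of these data known. Named genes are those at an adjusted p under 0.05 (predicted genes by locus, at most 3 named at each), up to 4 genes of smallest p per list, 10 fixed genes, and Apoe, Mapt, Prnp, Xist and Ddx3y. The p-values of edgeR rest on the spread among 3 mice a group, with each gene's variance drawn toward a trend over all genes. Depth gives counting error only.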

Additional observations from a re-analysis of the deposited data

Results flagged for a closer look

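In groups of 4 PS19 mice, 1 mouse lay far from the others for 10 of 156 gene and group pairs looked at, where chance alone gives about 1 in 20. Gm4724 was at 6.98 CPM in PS/E2H_3 and 6.002 CPM in PS/E4H_3. Gm13601 was at 0.141 CPM and Gm10593 at 1.03 CPM in PS/E4H_4, and Capn11 at 2.02 CPM in PS/E4H_3. Pglyrp1 was at 11.5 CPM and Cartpt at 7.58 CPM in PS/E2H_4. C1qa was at 229 CPM and Lcn2 at 57.6 CPM in PS/E4H_1, and Sorl1 was at 299 CPM in PS/E2H_3. Gm10593, of the chromosome 4 run, is named here only because of this value. Parental groups, with 3 mice each, are too small for this rule.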

How the results depend on the processing

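All 39 called genes kept their direction in every alternative that gave a value for them, and Ccl21b, Ccl21d, Erdr1, Gm10591, Gm13304, Gm16867, Gm45104, Serpina3n and Wdfy1 were called in each. The counts of calls moved more. DESeq2 called 53 higher and 33 lower, including all 39. limma on log2(FPKM + 1) called 17 higher and 5 lower, without a filter 8 and 3, and on log2(FPKM + 0.1) 17 higher and 9 lower. Leaving out 1 mouse gave 18 to 26 higher and 8 to 14 lower, with 8 lower without E4H_1. The genes also called in PS19 mice were 18 as reported, 34 with DESeq2, 34 with all 21 mice in the fit, 11 without the 3 PS19 mice with Y-linked counts (an alternative chosen after seeing the data) and 13 to 19 when 1 PS19 mouse was left out. For the interaction, DESeq2 called 115 genes and edgeR 0 to 3 with 1 mouse left out, 5 without the 4 mice with Y-linked counts (also chosen later). Those fits gave 1 gene without E2H_2, 1 without E4H_2, 3 without PS/E4H_1 and 2 without PS/E4H_3, the last being Erdr1 and Gm47283. Only uncalled genes changed sign: with 1 or more mice left out, Eps8l1 ranged from -0.12 (without E4H_2) to 0.28, with -0.03 without E2H_3, and Xist from -0.57 to 0.45, with 0.06 without E2H_3, 0.45 without E4H_3 and 0.22 without E2H_2 and E4H_3. The cause of these changes was not tested.

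The deviations of mice with the same replicate number had correlations of 0.0097, -0.191 and -0.158, and of -0.12 to 0.039 in PS19 mice. With so few mice, these values cannot exclude that the number marks a shared batch. A replicate block gave 18 higher and 7 lower calls in the parental mice, and 0 interactions. With the block in the PS19 fit only, 15 genes called in the parental fit without a block were also called in PS19 mice. With 3 mice a group a count of 0 calls in a list does not show that its genes are equal, and single-mouse effects such as those of E2H_2 weigh heavily. Reads of repeated genes on chromosomes 4 and 14 cannot be assigned to single copies, and the same limit holds for much of Gm4724 and Gm20186.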
